A study of Mus musculus with 6 samples.

Results

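The 9 genes described here encode proteins that muscle cells use to release, take up, store and admit calcium. They were chosen by name, with earlier results of these data already known. The set holds the release channels Ryr2 and Itpr1 and the store proteins Casq1, Casq2 and Hrc. It also holds the pump Atp2a2 with its inhibitor Pln, and the surface channel subunits Cacna1c and Cacnb2. All 9 were found by symbol among the 14298 genes listed for mouse aortic arches. RNA was sequenced from 3 knockout (KO) and 3 control (WT) arches of adult C57/BL6 mice, with 3 mice per genotype. Every animal lacked apolipoprotein E (ApoE-/-), which predisposes to atherosclerosis, and carried RBPJflox/flox, floxed alleles of Rbpj, whose product binds DNA and carries Notch signals to target genes. The KO animals carried Cdh5-CreERT as well, a tamoxifen-activated recombinase whose promoter is active in endothelial cells, and the WT animals did not, so the genotypes differ in the recombinase and in the deletion together. All animals received tamoxifen for 1 week at 8 weeks of age and then a high-fat diet for 6 weeks. Libraries are named by their numbers, S595, S598 and S599 in the KO group and S591, S592 and S594 in the WT group.

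In smooth muscle, the sarcoplasmic reticulum is the main calcium store. A SERCA pump fills it, calsequestrin and related proteins buffer the calcium inside, and ryanodine and inositol trisphosphate receptors let it out. Voltage-gated L-type channels admit calcium from outside the cell. Calcium bound to calmodulin then drives contraction of the vessel wall, while local release through ryanodine receptors opens potassium channels and relaxes it. Calsequestrin 2, phospholamban and the histidine-rich calcium-binding protein are best known from heart muscle, and calsequestrin 1 from skeletal muscle. Itpr1 and Atp2a2 serve the calcium stores of many other cell types as well.

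Levels are in normalised CPM, that is, reads divided by the scaled depth of the library, and log2 fold changes are KO minus WT on the log2(value + 1) scale, which understates differences of low genes. Over the listed genes the libraries held 5904504 to 10072495 reads. Rbpj itself read 169, 197 and 212 in the KO libraries, against 174, 191 and 200.4 in the WT libraries (log2 fold change 0.03, 95% interval −0.24 to 0.30, limma adjusted p = 0.923), and a value from the whole wall does not check a deletion in its endothelium. Cdh5, whose promoter drives the recombinase, averaged 139 ± 51.1 in KO and 132 ± 12.7 in WT arches (log2 fold change 0.02, adjusted p = 0.962). By limma, with p-values adjusted over all 14298 genes, 3 genes were called higher in the KO arches (0.0210%) and 0 lower, and at an unadjusted p of 0.05 the counts were 1150 higher and 1710 lower. The median log2 fold change over all genes was −0.02. In whole-tissue RNA, fewer cells of a type and less RNA per cell cannot be told apart.

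All 9 calcium genes had a higher mean and a positive log2 fold change in the KO arches, where 47.8% of all genes had a positive one, with fold differences of the means from 1.29 for Itpr1 to 2.48 for Pln. Casq2 reached a value above 1 in KO S598, KO S599 and WT S591 alone. Its place among the listed genes, and so its part in this count, rests partly on the KO libraries. None passed the test over all genes: limma called 0 of the 9, with adjusted p from 0.107 for Casq1 to 0.307 for Casq2. At an unadjusted p of 0.05, 7 of the 9 were higher and 0 lower, where 8.04% of all genes were higher and 12.0% lower at that level. In 6 of the 9 (Ryr2, Casq1, Hrc, Atp2a2, Cacna1c and Cacnb2) every KO library stood above every WT library, a separation seen in 11.3% of all genes. The KO and WT libraries overlapped for Casq2, Pln and Itpr1. The median log2 fold change of the 9 was 0.62. As the genes were chosen with earlier results known, these counts describe the set and do not test it. The edgeR quasi-likelihood test and limma-voom on the recovered reads also called 0 of the 9, while DESeq2 called Casq1, Ryr2 and Cacna1c higher (adjusted p = 0.00108, 0.00962 and 0.0155), where it called 2.13% of the genes it tested higher and 4.56% lower. Without a variance trend limma called 0.00699% of all genes higher, without WT S594 0.0140% higher and without KO S595 0.0420% lower, with 0 of the 9 among them.

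**Figure D1:**
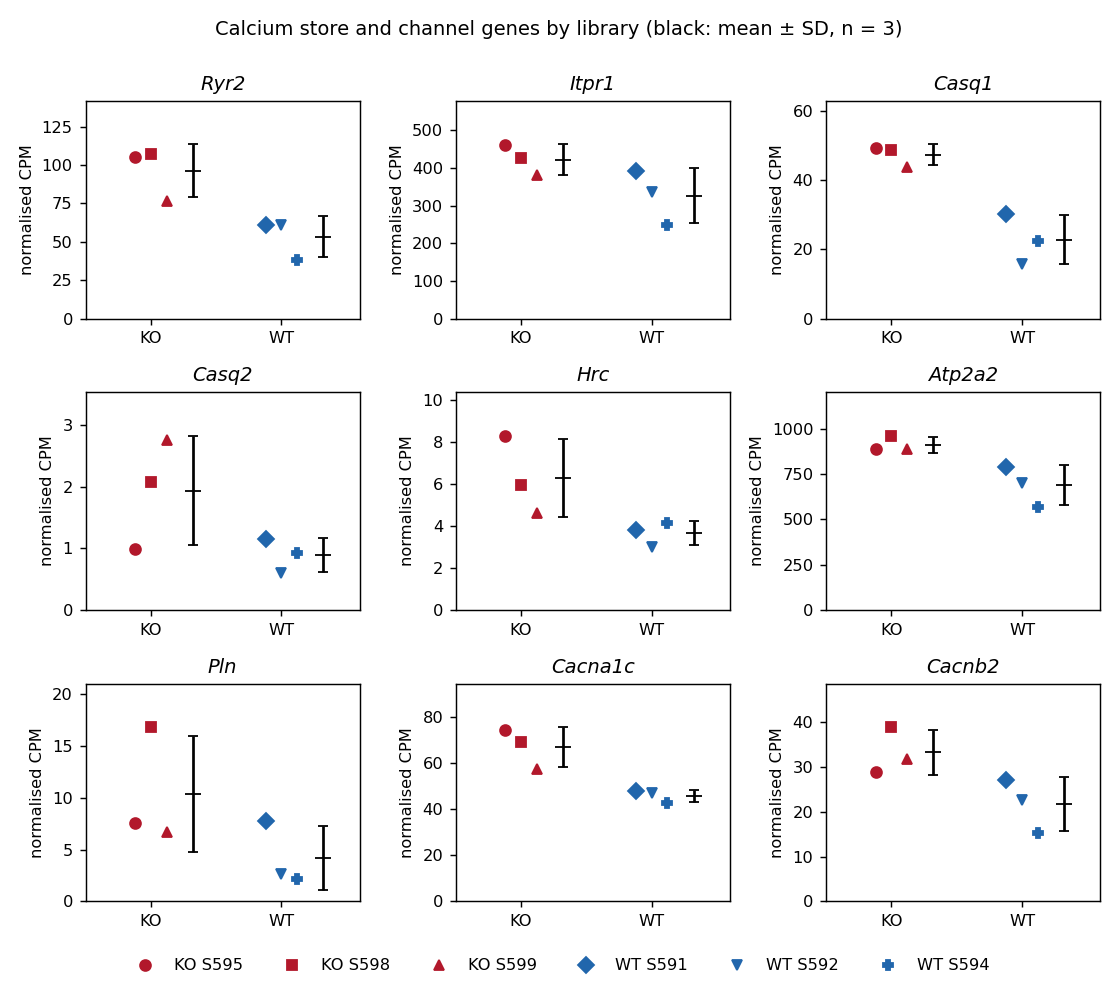
Normalised CPM (linear axes from 0) of the 9 calcium genes in the KO and WT libraries, 1 point per library, with the mean ± SD beside each group (n = 3). The groups are apart for 6 genes and overlap for Casq2, Pln and Itpr1; Pln in KO S598 (16.8) and Casq2 in KO S599 (2.75) are the highest values of their genes.

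Ryr2 encodes the ryanodine receptor that releases store calcium in heart and in arterial smooth muscle. It stood at 105, 107 and 76.4 in KO S595, S598 and S599, against 61.2, 60.7 and 38.0 in WT S591, S592 and S594. The lowest KO library, S599, was above the highest WT library, and WT S594 was the lowest of all. The means were 96.2 ± 17.2 in KO and 53.3 ± 13.3 in WT arches (SD, n = 3 each), with a log2 fold change of 0.86 (SE 0.21, 95% interval 0.36 to 1.35, adjusted p = 0.121). Each library held 306 to 1112 reads of the gene. The genes of the other ryanodine receptors, Ryr1 and Ryr3, and of triadin, Trdn, which anchors calsequestrin to the receptor in striated muscle, were not among the genes listed, all of which reached a value above 1 in at least 3 libraries.

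Itpr1, the gene of the inositol trisphosphate receptor through which hormone and transmitter signals release calcium, stood at 461, 425 and 380.1 in the KO libraries, against 393, 337 and 248 in the WT libraries. WT S591 lay above KO S599, so the groups overlapped. The means were 422 ± 40.3 in KO and 326 ± 72.8 in WT arches, and the log2 fold change was 0.39 (95% interval −0.02 to 0.81, adjusted p = 0.273), or 0.21 without WT S594. The ratio of Ryr2 to Itpr1 within each library, on the log2(value + 1) scale, was −2.12, −1.98 and −2.30 in the KO libraries and −2.66, −2.45 and −2.68 in the WT libraries. Its KO values were all above its WT values, a difference of 0.46 (exact two-sided permutation p = 0.1, the smallest that 3 against 3 libraries allow, and 0.4 after Benjamini-Hochberg adjustment over 4 ratios).

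Among the store proteins, Casq1 gave the largest log2 fold change of the 6 genes whose groups were apart. This calsequestrin, which binds calcium inside the store with high capacity, stood at 49.4, 48.7 and 43.8 in the KO libraries, against 30.1, 15.9 and 22.4 in the WT libraries. The KO libraries lay close together, and the WT libraries spread over a wider range with S592 lowest. The means were 47.3 ± 3.05 in KO and 22.8 ± 7.12 in WT arches, a 2.08-fold difference, with a log2 fold change of 1.06 (SE 0.21, 95% interval 0.57 to 1.56, adjusted p = 0.107). With WT S591 left out it was called (log2 fold change 1.28, adjusted p = 0.0283), and in that fit 1.41% of all genes were called higher, 3.29% were called lower and none of the other 8 calcium genes was.

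Casq2, the calsequestrin of heart muscle, was close to the lower limit of the listing, at 0.989, 2.07 and 2.75 in the KO libraries and 1.15, 0.604 and 0.929 in the WT libraries. KO S595 lay below WT S591, so the groups overlapped, and the values rested on 4 to 21 reads per library. The log2 fold change was 0.59 (95% interval −0.09 to 1.28, adjusted p = 0.307), and on the recovered reads, with no such pseudocount, it was 1.19 by edgeR (adjusted p = 0.239), 1.08 by limma-voom (adjusted p = 0.280) and 1.22 by DESeq2, which gave no adjusted p. Without KO S599 the limma value was 0.39, and with KO S595 as the single KO library it was 0.08. The log2 ratio of Casq2 to Casq1 averaged −4.09 ± 0.55 in KO and −3.62 ± 0.23 in WT arches (difference −0.47, exact permutation p = 0.3, adjusted p = 0.4), and the groups overlapped. The difference was −0.18 without KO S595, −0.72 without KO S599, and −0.33 and −0.61 with pseudocounts of 0.5 and 2. The folds of the means of the deposited values, which hold an offset of 0.5 read and no added pseudocount, were 2.16 for Casq2 and 2.08 for Casq1.

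Hrc, the gene of a histidine-rich protein that binds calcium in the store and interacts with the SERCA pump and triadin in heart muscle, stood at 8.29, 5.93 and 4.64 in the KO libraries, against 3.82, 3.02 and 4.15 in the WT libraries. KO S599 was only slightly above WT S594, the nearest pair across the groups. The means were 6.29 ± 1.85 in KO and 3.66 ± 0.58 in WT arches, with a log2 fold change of 0.62 (95% interval 0.08 to 1.17, adjusted p = 0.204) on 21 to 61 reads per library.

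The upstream sequences of the release channel Ryr2 and of the 3 store proteins are shown because these proteins work together at the store membrane and because the deleted gene encodes a DNA-binding factor. Each is the 250 bases before the annotated start in RefSeq on GRCm38.p6, another build than that of the deposited values, read 5′ to 3′ on the gene's strand. Ryr2 is on the minus strand at chr13:12106946-12107195, Casq1 on the minus strand at chr1:172219896-172220145, Casq2 on the plus strand at chr3:102086165-102086414 and Hrc on the plus strand at chr7:45335019-45335268. Capitals mark matches on either strand to the RBPJ core TGGGAA, to the E-box CANNTG of basic helix-loop-helix factors, to the MEF2 consensus and to the CArG box of serum response factor.
Ryr2: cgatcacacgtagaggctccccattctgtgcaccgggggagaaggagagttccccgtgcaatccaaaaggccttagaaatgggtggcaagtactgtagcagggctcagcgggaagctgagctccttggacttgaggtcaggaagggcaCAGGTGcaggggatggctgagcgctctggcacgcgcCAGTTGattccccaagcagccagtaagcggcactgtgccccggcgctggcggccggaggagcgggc
Casq1: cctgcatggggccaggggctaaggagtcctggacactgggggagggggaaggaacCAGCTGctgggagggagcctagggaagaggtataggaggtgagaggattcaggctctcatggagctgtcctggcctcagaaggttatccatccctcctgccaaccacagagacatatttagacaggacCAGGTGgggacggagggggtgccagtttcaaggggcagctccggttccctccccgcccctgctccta
Casq2: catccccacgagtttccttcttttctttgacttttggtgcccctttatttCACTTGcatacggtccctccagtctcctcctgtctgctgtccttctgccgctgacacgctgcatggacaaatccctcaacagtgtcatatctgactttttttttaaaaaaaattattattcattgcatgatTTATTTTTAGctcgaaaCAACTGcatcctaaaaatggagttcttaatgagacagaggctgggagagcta
Hrc: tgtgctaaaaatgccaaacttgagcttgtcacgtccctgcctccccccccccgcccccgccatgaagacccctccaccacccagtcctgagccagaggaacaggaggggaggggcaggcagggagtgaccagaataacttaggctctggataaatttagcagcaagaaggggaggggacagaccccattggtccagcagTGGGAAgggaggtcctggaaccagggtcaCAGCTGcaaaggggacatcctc
The RBPJ core TGGGAA was found in 1 of these 4 windows, that of Hrc, 51 to 46 bases before the start. Over the 10 windows listed for 7 of the 9 genes it was also found once, and over all 32851 windows of that length it was present in 21.6%. A MEF2 match was found once, in Casq2, 69 to 60 bases before the start, and in 2.92% of all windows. An E-box was present in all 10 windows and in 66.2% of all windows, and a CArG box in 0 of the 10 and in 1.47% of all. No match overlapped a match of another motif. A match describes the letters of a window and not a bound site.

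Uptake into the store rests on SERCA2, encoded by Atp2a2, which had the highest level of the 9 genes. It stood at 887, 961 and 886 in the KO libraries, against 790.0, 702 and 570.2 in the WT libraries. All KO libraries were above all WT libraries, and their spread was the narrower (911 ± 43.1 in KO, 687 ± 111 in WT). The log2 fold change was 0.42 (SE 0.16, 95% interval 0.06 to 0.78, adjusted p = 0.199), resting on 4446 to 9968 reads per library.

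Pln encodes phospholamban, the small membrane protein that restrains SERCA2 until it is phosphorylated. It stood at 7.53, 16.8 and 6.68 in the KO libraries, against 7.73, 2.62 and 2.17 in the WT libraries. KO S598 was far above the rest, and WT S591 exceeded both other KO libraries, so the groups overlapped. The means were 10.3 ± 5.63 in KO and 4.17 ± 3.09 in WT arches, and the log2 fold change of 1.18 had the widest interval of the 9 (0.11 to 2.25, adjusted p = 0.213). Without KO S598 it was 0.80, and without WT S591 it was 1.64. The 6 cardiac muscle markers listed summed to 50.2, 35.2 and 24.5 in KO S595, S598 and S599, against 79.8, 19.0 and 14.2 in WT S591, S592 and S594, and their part in the level of Pln was not tested. The log2 ratio of Pln to Atp2a2, which bears on how many pump transcripts stand beside those of the inhibitor, averaged −6.44 ± 0.59 in KO and −7.20 ± 0.61 in WT arches (difference 0.76, exact permutation p = 0.3, adjusted p = 0.4). Leaving out 1 library gave 0.42 (without KO S598) to 1.11 (without WT S591).

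Cacna1c encodes the pore-forming subunit of the L-type channel, Cav1.2, the target of calcium channel blockers. It stood at 74.2, 69.3 and 57.5 in the KO libraries, against 47.7, 47.0 and 42.8 in the WT libraries. The WT libraries lay close together and below all KO libraries (67.0 ± 8.58 in KO, 45.8 ± 2.66 in WT). The log2 fold change was 0.53 (SE 0.12, 95% interval 0.25 to 0.81, adjusted p = 0.112), with the narrowest interval of the 9 genes.

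Cacnb2 encodes a cytoplasmic beta subunit that brings the channel to the surface membrane. Its values were 29.0, 38.9 and 31.9 in the KO libraries and 27.1, 22.7 and 15.2 in the WT libraries. The gap between KO S595 and WT S591 was small against the spread within either group (33.2 ± 5.10 in KO, 21.7 ± 6.03 in WT). The log2 fold change was 0.62 (95% interval 0.12 to 1.13, adjusted p = 0.178), or 0.40 without WT S594. The log2 ratio of Cacnb2 to Cacna1c averaged −0.99 ± 0.29 in KO and −1.08 ± 0.33 in WT arches, and the groups overlapped (difference 0.09, exact permutation p = 0.7, adjusted p = 0.7).

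Set per kilobase of the longest coding transcript (GENCODE M21), Atp2a2 was the most abundant of the 9, with 203 ± 9.60 CPM per kilobase in KO and 153 ± 24.7 in WT arches. Itpr1 followed with 42.7 ± 4.09 in KO and 33.0 ± 7.37 in WT arches, and Casq1 with 25.6 ± 1.65 in KO and 12.3 ± 3.86 in WT arches. Cacnb2 came next with 8.43 ± 1.29 in KO and 5.49 ± 1.53 in WT arches. Below it Ryr2 (5.72 ± 1.02 in KO, 3.17 ± 0.79 in WT), Cacna1c (5.09 ± 0.65 in KO, 3.48 ± 0.20 in WT) and Pln (4.43 ± 2.41 in KO, 1.79 ± 1.32 in WT) followed, with Cacna1c above Ryr2 in the WT arches. Ryr2 and Cacna1c differed by less than the larger of their SDs in both groups, as did Cacna1c and Pln in the KO arches, whereas in the WT arches Pln was below both by more than its SD. Hrc (2.61 ± 0.77 in KO, 1.52 ± 0.24 in WT) was within the SD of Pln, and Casq2 was lowest (0.76 ± 0.35 in KO, 0.35 ± 0.11 in WT). Per length merged over all exons, Casq1 exceeded Itpr1 in the KO arches (24.2 for Casq1, 23.0 for Itpr1) and not in the WT arches (11.7 for Casq1, 17.8 for Itpr1), and Cacnb2 (2.51 in KO, 1.64 in WT) stood below Ryr2 (3.34 in KO, 1.85 in WT) and Cacna1c (3.16 in KO, 2.16 in WT). In the KO arches Pln (3.75) then stood above Ryr2, Cacna1c and Cacnb2. The places of Casq1, Itpr1, Cacnb2, Ryr2, Cacna1c and Pln in the order thus depend on the isoforms assumed. Casq1 was the more abundant calsequestrin gene in these arches, by 22.0-fold to 69.1-fold per kilobase in the KO libraries and 33.3-fold to 36.4-fold in the WT libraries. Per kilobase of the longest coding transcript, Itpr1 exceeded Itpr2 by 7.19-fold to 13.2-fold in the KO and 5.36-fold to 8.17-fold in the WT libraries. It exceeded Itpr3 by 15.1-fold to 17.6-fold in the KO and 5.05-fold to 13.4-fold in the WT libraries. Per length merged over all exons, Itpr1 averaged 23.0 in KO and 17.8 in WT arches. Itpr2 then averaged 3.39 in KO and 3.93 in WT arches, and Itpr3 2.65 in KO and 4.09 in WT arches. The folds between these receptor genes therefore also depend on the isoforms assumed.

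The libraries ranked much alike for most of the 9 genes. WT S594 was the lowest library for 6 genes and WT S592 for the other 3, while the highest was KO S595 for 4, KO S598 for 4 and KO S599 for 1. Averaged over the 9 genes, log2(value + 1) was 5.50, 5.67 and 5.38 in KO S595, S598 and S599 and 5.12, 4.73 and 4.60 in WT S591, S592 and S594. By the root mean square difference of centred log2 values over the 6 libraries, Itpr1 and Atp2a2 were the closest pair among the 9, at 0.10. Outside the set, of 11723 genes with a mean of at least 5, the nearest to Ryr2 were Pdlim3 and Ldb3 (0.06 each), the nearest to Cacna1c were Camkk1 (0.03) and Hbegf (0.06), and the nearest to Cacnb2 were Limch1 (0.03) and Asap2 (0.06). Itpr1 lay nearest Map1a (0.04) and Itga1 (0.05), and Hrc nearest Chsy3 (0.06) and Hspb7 (0.09). Casq1 lay nearest Rhobtb1 and Lyplal1 (0.14 each), Casq2 nearest Mamstr (0.11) and Ccdc85a (0.12), and Pln, with the least similar neighbours, nearest Kcnc4 (0.23) and Tub (0.31).

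**Figure D2:**
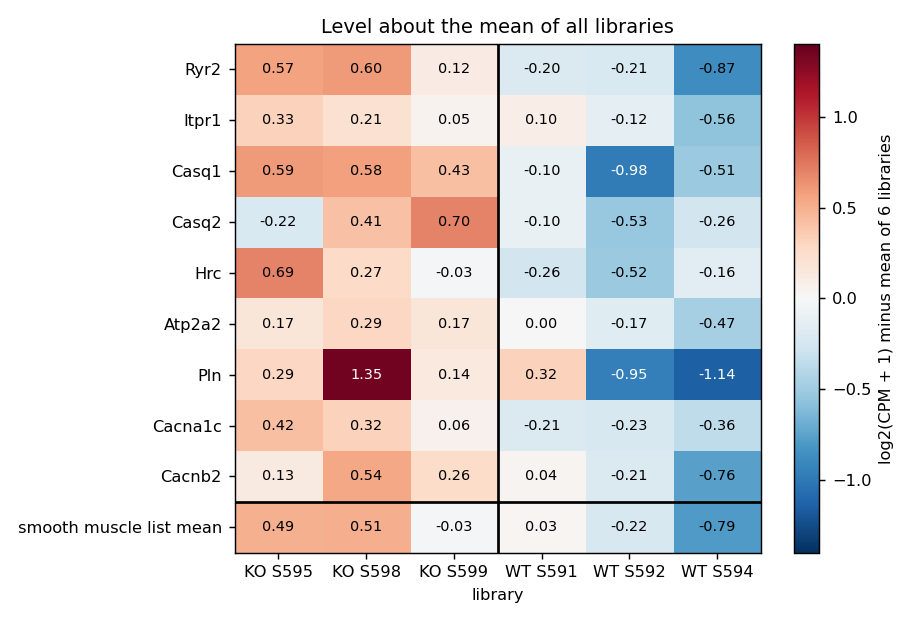
Level of each calcium gene and of the mean of 12 smooth muscle markers in each library (columns, KO then WT), as log2(value + 1) minus the mean of the 6 libraries; red is above and blue below that mean. KO S595 and S598 are mostly above it and WT S592 and S594 mostly below, while KO S599 (−0.03) and WT S591 (0.03) are near it for the smooth muscle markers.

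Smooth muscle transcripts stood higher on average beside the calcium genes. All 12 smooth muscle markers (Myh11, Acta2, Tagln and others) were on the higher side in the KO arches (median log2 fold change 0.64), and limma called 0 of them. At an unadjusted p of 0.05, 7 were higher, where 8.04% of all genes were. Every KO library stood above every WT library for 5 of the 12, where 11.3% of all genes were so separated. Their summed level ran from 24786 to 34051 in the KO libraries and from 14153 to 24630 in the WT libraries. Their mean log2(value + 1), used for scaling below, overlapped between the groups, at 9.61 in KO S599 and 9.66 in WT S591. Of 11 cardiac muscle markers 6 were listed, with a summed level of 24.5 to 50.2 in the KO libraries and 14.2 to 79.8 in the WT libraries. Nppa, Nppb, Mybpc3, Myl2 and Csrp3 were not listed. The cardiac myosin gene Myh6 read 13.6, 1.59 and 2.75 in the KO libraries, against 23.9, 1.01 and 3.16 in the WT libraries. The cardiac troponin gene Tnnt2 read 13.3, 23.3 and 12.8 in the KO libraries, against 24.8, 9.19 and 2.66 in the WT libraries, so the markers did not rank the KO libraries alike, while both were highest in WT S591. Of 16 skeletal muscle markers 2 were listed (Mybpc2 and Tnnt1), summing to 3.30 to 7.91 in the KO libraries and 4.29 to 7.82 in the WT libraries, while Acta1, Ckm and the other 12 were not listed. Neuronal markers were listed for 3 of 9, summing to 11.3 to 17.7 in the KO and 14.7 to 29.9 in the WT libraries.

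Other cell types differed between the libraries as well. The 7 macrophage, 5 fibroblast and 5 brown fat markers all had negative log2 fold changes, where 7470 of all 14298 genes had one. All 9 T cell and thymocyte markers had positive ones, and limma called 0 of the genes in these lists. The macrophage markers summed to 1898 to 4774 in the KO and 4561 to 7839 in the WT libraries. The fibroblast markers summed to 3688 to 4845 in the KO and 5370 to 8319 in the WT libraries. The 9 T cell and thymocyte markers summed to 24.6, 198 and 85.2 in KO S595, S598 and S599 and to 28.6 to 37.9 in the WT libraries. The 7 endothelial markers summed to 733 to 1154 in the KO and 906 to 967 in the WT libraries. The 5 brown fat markers summed to 333 to 592 in the KO and 343 to 1334 in the WT libraries, with the highest level in WT S591, and the 4 general fat cell markers to 252 to 454 in the KO and 203 to 514 in the WT libraries. Of 4 airway markers 2 were listed, Scgb1a1 and Bpifa1. They summed to 56.3 to 76.2 in the KO and 1.95 to 7.06 in the WT libraries. Both were called higher in the KO arches, as 2 of the 3 genes that limma called in all. Of 4 thyroid markers 1 was listed, Tshr. The part of these cell types in the levels of the calcium genes was not tested.

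Set against the mean of the smooth muscle markers in the same library, the 9 calcium genes no longer stood on one side. The difference, KO minus WT, in the log2 level relative to that mean was positive for Ryr2 (0.20), Casq1 (0.41) and Pln (0.53) and negative for Itpr1 (−0.26), Atp2a2 (−0.23), Cacna1c (−0.12), Casq2 (−0.06), Cacnb2 (−0.03) and Hrc (−0.03), and the sign of the last 4 of these turned when single libraries were left out. The sign of Casq2 and Hrc, both low, also depended on the pseudocount. With 0.5 they were at 0.10 and 0.026, and with 2 at −0.23 and −0.12. Ryr2 was the single gene whose groups stayed apart, at −3.40, −3.38 and −3.33 in the KO libraries and −3.70, −3.47 and −3.56 in the WT libraries (exact permutation p = 0.1, the smallest possible, adjusted p = 0.54 over the 9). With Myh11 alone in place of the list its groups overlapped (difference 0.13, exact permutation p = 0.2), and those of Itpr1 were apart with the KO arches lower (difference −0.33, exact permutation p = 0.1). For the other 8 genes relative to the list the exact permutation p ran from 0.2 to 1. Casq1 and Pln relative to the list averaged −4.37 ± 0.21 and −6.56 ± 0.53 in KO arches and −4.78 ± 0.52 and −7.09 ± 0.52 in WT arches, with overlapping groups. Leaving out 1 library moved the difference of Casq1 between 0.13 (without WT S592) and 0.65 (without WT S594), that of Pln between 0.24 (without KO S598) and 0.81 (without WT S591), and that of Atp2a2 between −0.39 (without KO S599) and −0.13 (without KO S595 or WT S594). Pln was at 0.30 without WT S592.

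**Figure D3:**
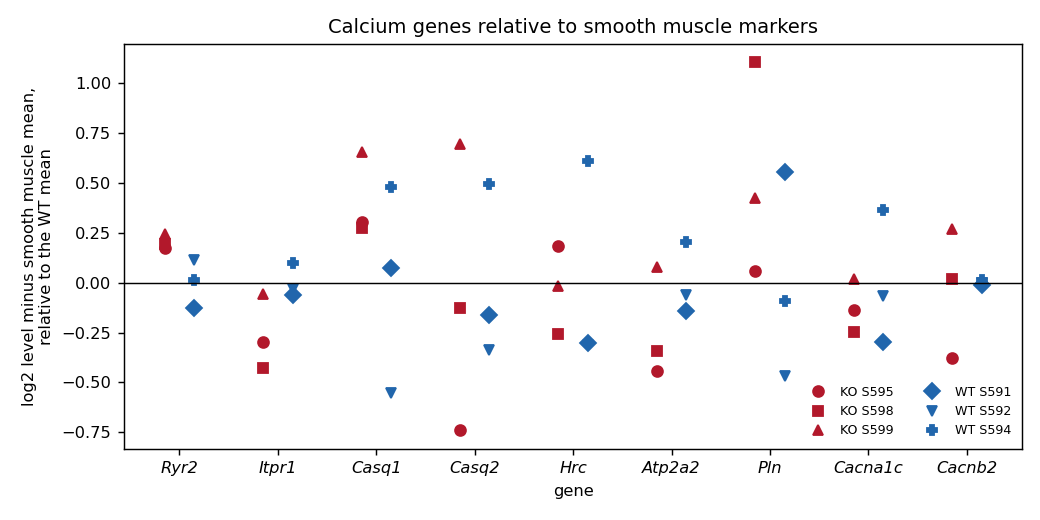
Log2 level of each calcium gene minus the mean log2 level of 12 smooth muscle markers in the same library, shown relative to the WT mean of that gene (line at 0), 1 point per library, KO left of WT. The groups are apart for Ryr2 alone. All KO libraries lie below the line for Itpr1, and most of them do for Atp2a2, Cacna1c, Casq2 and Hrc.

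Of 70 other genes of calcium handling, 57 were listed. limma called 0 of them, with 14 higher and 5 lower at an unadjusted p of 0.05, where the shares over all genes were 8.04% and 12.0%. Their groups were apart with KO higher for 14 and with KO lower for 4, against 11.3% and 14.2% of all genes. Their median log2 fold change was 0.18. DESeq2 called 5 higher (Mrvi1, Atp2b4, Atp2a3, Cacna1d and Mylk) and 1 lower (Piezo1), with adjusted p from 0.00139 to 0.0430, beside 2.13% higher and 4.56% lower over all genes it tested. The edgeR test and limma-voom called 0, and Mylk is named here after its values were seen. Without WT S591 limma called Camk2g and Slc24a3 higher and Piezo1, Itpr3 and Atp2b1 lower, beside 1.41% of all genes higher and 3.29% lower in that fit, Atp2b1 being likewise named afterwards.

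Among genes of release and of the junction between the store and the surface membrane (12 of 15 listed, median log2 fold change 0.19), Mrvi1, which encodes the substrate through which cGMP kinase restrains the inositol trisphosphate receptor, had the smallest p. Mrvi1 stood at 452 ± 37.2 in KO and 288 ± 64.6 in WT arches (log2 fold change 0.67, adjusted p = 0.127). The junctophilin gene Jph2, which ties the store to the surface membrane, stood at 356 ± 75.6 in KO and 235 ± 73.0 in WT arches with overlapping groups (log2 fold change 0.62, adjusted p = 0.234). The other inositol trisphosphate receptor genes lay on the opposite side from Itpr1. Itpr3 stood at 23.9 ± 2.61 in KO and 36.9 ± 9.24 in WT arches (log2 fold change −0.58, adjusted p = 0.167), and Itpr2 at 50.2 ± 11.0 in KO and 58.1 ± 11.4 in WT arches (−0.21, adjusted p = 0.580).

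For uptake and storage, 7 of 10 genes were listed and the median log2 fold change was −0.03. Atp2a3, the SERCA gene of endothelial and blood cells among others, stood at 93.5 ± 7.67 in KO and 67.1 ± 7.10 in WT arches with the groups apart (log2 fold change 0.47, adjusted p = 0.121). Calr, the gene of calreticulin, the calcium-binding chaperone of the endoplasmic reticulum in most cells, stood on the lower side at 587 ± 92.8 in KO and 760.1 ± 42.1 in WT arches (−0.38, adjusted p = 0.210), also with the groups apart. Atp2a1, the SERCA gene of fast skeletal muscle, and the genes of the small pump inhibitors sarcolipin and myoregulin, Sln and Mrln, were not listed.

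Entry genes (17 of 23 listed, median log2 fold change 0.14) went both ways. The L-type pore gene Cacna1d stood at 52.9 ± 8.91 in KO and 35.9 ± 2.06 in WT arches (log2 fold change 0.54, adjusted p = 0.121), close to the difference of Cacna1c. The accessory subunit gene Cacna2d1 stood at 146 ± 14.6 in KO and 110.5 ± 18.2 in WT arches (0.41, adjusted p = 0.178). Cacnb3, another beta subunit gene, stood at 37.3 ± 5.20 in KO and 37.1 ± 2.71 in WT arches (log2 fold change 0.00, adjusted p = 0.992). Piezo1, the gene of a mechanically gated channel, was on the lower side at 90.7 ± 12.0 in KO and 166 ± 33.1 in WT arches (−0.86, adjusted p = 0.107).

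Extrusion genes (7 of 8 listed) had a median log2 fold change of 0.41. Atp2b4, which encodes a plasma membrane calcium pump, stood at 461 ± 30.1 in KO and 338 ± 39.8 in WT arches (0.45, adjusted p = 0.129), and the exchanger gene Slc24a3 at 106 ± 7.78 in KO and 67.9 ± 22.1 in WT arches (0.68, adjusted p = 0.145). The sodium-calcium exchanger gene Slc8a1 stood slightly lower, at 45.5 ± 0.65 in KO and 50.7 ± 2.69 in WT arches (−0.15, adjusted p = 0.407). Of the 14 sensors and effectors, all listed, the median was 0.23. Camk2g, a calmodulin-dependent kinase gene, stood at 152 ± 5.96 in KO and 115 ± 15.9 in WT arches (0.41, adjusted p = 0.132). Kcnma1, the gene of the large-conductance potassium channel that calcium sparks open, stood at 34.6 ± 3.98 in KO and 21.6 ± 6.82 in WT arches (0.70, adjusted p = 0.168).

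**Figure D4:**
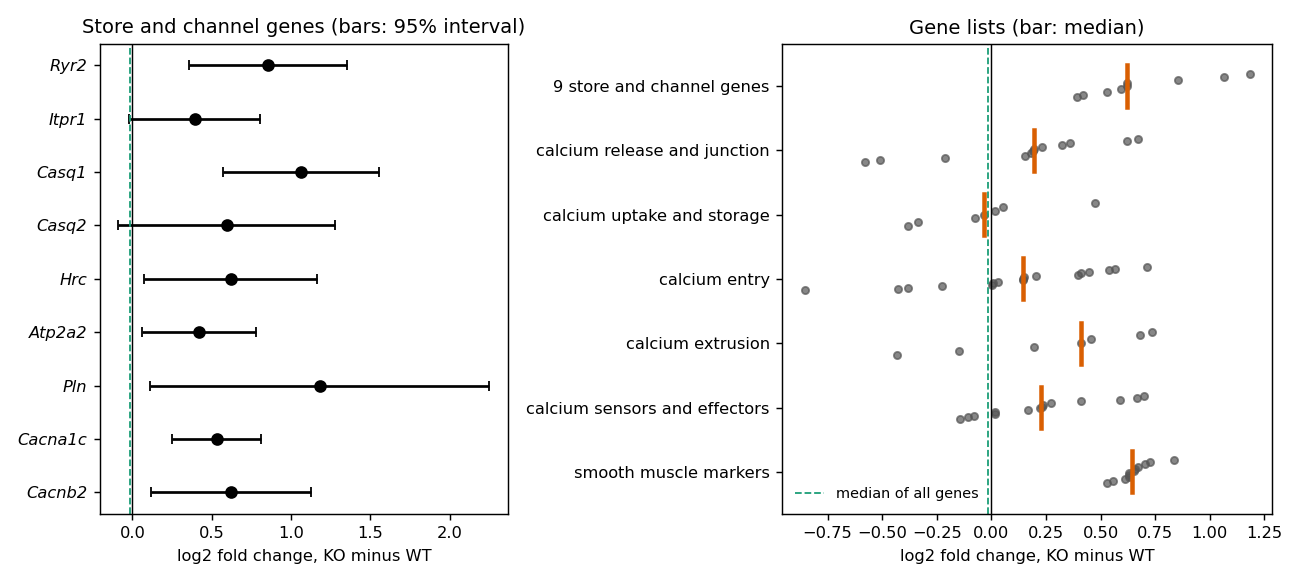
Left, log2 fold change (KO minus WT, log2(value + 1) scale) of each of the 9 calcium genes with its 95% interval from limma; right, log2 fold changes of every gene in each list, with an orange bar at the list median and a dashed line at the median of all genes (−0.02). The medians are 0.62 for the 9 genes, 0.64 for the smooth muscle markers and −0.03 to 0.41 for the other calcium lists.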

How the data were processed

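TruSeq libraries were made from polyA RNA of aortic arches with an integrity number of 7.9 or more, per the labels' protocols. The submitters' processing notes name CASAVA 1.8, cutadapt 1.6.1, RSEM 1.16, Bowtie 0.12.7, limma, edgeR and build NCBIM37, with no roles. Neither an annotation nor a strand setting is given in the sources used here. The authors deposited a normalised signal, 1 value per gene and library. It equals (reads + 0.5) in CPM of the TMM-scaled library size, with a largest relative difference of 1.01e-09, and 100% of the values gave whole reads at a tolerance of 0.01 read, which the added count tests used. The columns carry a group name and a number that no sample label holds, so libraries were not paired.

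Genotypes were compared with limma 3.58.1 (R 4.3.3, intensity trend) on log2(value + 1) for genes with a value of at least 1 in at least 3 libraries, two-sided, with Benjamini-Hochberg adjustment over the 14298 genes and a threshold of 0.05. Intervals are at 95%. Ratios used exact permutation tests. The comparison was tested on simulated counts with the same spread setting for every gene and changes planted in genes with a mean of at least 5. That run does not cover lower genes such as Casq2 and Hrc, or differences in cell composition. Symbols matched 13828 of 14298 identifiers, and Irag1 was looked up under its annotated symbol Mrvi1. The members, lists, tests and naming rule (the 9 genes, chosen calcium genes, the 2 of each list with the smallest p and the 2 nearest profiles) were chosen with earlier results of these data known. The nearest profiles of Atp2a2 are not reported here. Alternatives were edgeR 4.0.16, DESeq2 1.42.0 and limma-voom on reads, other pseudocounts (0.5 and 2), filters, scalings and variance models, and libraries left out.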

Additional observations from a re-analysis of the deposited data

How the results depend on the processing

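The 9 calcium genes kept a positive log2 fold change under every alternative that gave a value, and their median ran from 0.53 to 0.80 over 18 alternatives. Other filters and variance models cannot change the log2 fold change of a gene, so they bear on p-values and on which genes are tested. Dropping the filter repeated the main fit, because every listed gene already passed it. Against 0 of the 9 called, DESeq2 called 3 and leaving out 1 library gave 0 to 1 (Casq1 without WT S591). Of the other calcium genes, against 0 called, DESeq2 called 5 higher and 1 lower, and leaving out 1 library gave 0 to 2 higher and 0 to 3 lower, again without WT S591. Over all genes, against 3 called higher, the count was 0 with a pseudocount of 0.5, a mean of at least 5, edgeR, limma-voom or without KO S598 and S599, 1 without the variance trend, 287 with DESeq2, and 0 to 201 with 1 library left out. Against 0 called lower it was 613 with DESeq2 and 0 to 470 with 1 library left out, both highest counts being without WT S591. The cause was not tested. Differences near 0 changed sign. Rbpj ran from −0.045 to 0.12 and Cdh5 from −0.26 to 0.17 with 1 library left out, negative without KO S599 or WT S591 (Rbpj −0.03, Cdh5 −0.02) and, for Cdh5, WT S592 (−0.01), and they were −0.16 and −0.27 without KO S598 and S599. The ratio of Cacnb2 to Cacna1c ran from −0.087 (without WT S594) to 0.26, and was −0.24 without KO S598 and S599. Relative to the smooth muscle markers, leaving out 1 library gave −0.43 to 0.28 for Casq2, −0.27 to 0.062 for Cacna1c, −0.18 to 0.14 for Cacnb2 and −0.19 to 0.28 for Hrc. With a pseudocount of 0.5 Casq2 was 0.10 and Hrc 0.026, and Hrc was 0.18 without KO S598 and S599. That fit leaves KO S595 alone, assumed to vary like the WT libraries. Casq2 (4 to 21 reads), Pln and Hrc are limited by depth, and counting error is not the spread between animals. No paired analysis was possible because the columns carry no replicate number.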
